A study of Homo sapiens with 18 samples.

Results

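The genes that carry WNT signals between cells were followed through neural induction of a human pluripotent stem cell line: the WNT ligands, the Frizzled receptors, the R-spondins and the secreted antagonists. Members were the rows of the expression table whose symbol was a numbered WNT, FZD, SFRP, DKK or RSPO gene, or FRZB. This symbol rule used no measured value. It found 42 of the 37550 rows, made up of 19 WNT ligands, 10 Frizzled receptors, 5 genes of the SFRP family (FRZB included), 4 DKK antagonists and 4 R-spondins.

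Messenger RNA was measured by poly-A RNA-seq in 18 libraries of the wild-type line H1, an established human embryonic stem cell line, in 9 groups of 2 biological replicates. Undifferentiated cells (hPSC) were taken at day 0. All other cells spent day 1 in a definitive ectoderm medium with A8301 at 1 µM and LDN193189 at 100 nM, which block TGF-beta and BMP receptors, trametinib at 250 nM, a MEK inhibitor, and C59 at 1 µM, an inhibitor of the enzyme PORCN that makes WNT ligands fit for secretion. On day 2, A8301 and LDN193189 were kept at the same doses for both populations. Anterior neural ectoderm (aNE) received C59 at 1 µM in addition. Posterior neural ectoderm (pNE) received instead FGF2 at 20 ng/mL, the retinoid TTNPB at 50 nM, and XAV939 at 1 µM, an inhibitor of the tankyrases TNKS and TNKS2 that lowers WNT signalling inside the cell. Cells of either origin were then carried to day 4 in forebrain medium (aNE_T and pNE_T), midbrain medium (aNE_M and pNE_M) or hindbrain medium (aNE_H and pNE_H). On day 3 the forebrain medium held XAV939 at 1 µM, LDN193189 at 100 nM and FGF2 at 20 ng/mL. What the other regional media contained is not used here. Plating density was 37500 cells per cm2 for wells ended at day 2. Wells carried to day 4 had 75000 (aNE) or 150000 (pNE) cells per cm2, so at that stage origin and plating density cannot be told apart. All groups are 1 cell line.

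WNT ligands are secreted lipid-bearing proteins that bind a Frizzled receptor together with a co-receptor, LRP5 or LRP6, and keep beta-catenin from being destroyed. Beta-catenin then joins TCF and LEF factors at target genes. SFRP proteins, FRZB among them, carry a Frizzled-like domain and bind WNT ligands outside the cell. DKK1, DKK2 and DKK4 bind LRP5 and LRP6, whereas DKK3 is a divergent member of that family. R-spondins act through LGR receptors and keep Frizzled receptors at the cell surface. In the early neural plate a low level of WNT signalling goes with forebrain fate and a higher level with more caudal fates.

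Levels are TPM, a length-scaled share of each library's transcripts that sums to the same total in every library. The number of reads behind them is unknown. Between 13686 and 14679 genes reached 1 TPM in a library, and replicates correlated across genes at r = 0.982 to 0.987 on the log2 scale. The group labels were checked against marker lists. Summed TPM of 5 stem cell markers was 4101 to 4117 in hPSC and at most 430.2 in any other library. Summed TPM of 6 forebrain markers was highest in aNE_T, at 928 to 977. In pNE_T, the other forebrain medium group, it was 42.5 to 46.3, below the 69.4 to 98.8 of pNE. Summed TPM of 6 midbrain and isthmus markers was highest in aNE_M, at 326 to 337, and was 33.3 to 34.0 in pNE_M. Both pNE_M libraries had EN1 and CNPY1 of this list at 0, so that population lacked these markers of its medium's name. Of the 6 markers, 1 reached 1 TPM in both pNE_M libraries, against 5 in aNE_M. Summed TPM of 6 neural markers was 205 to 208 in hPSC, 797 to 802 in aNE and 302 to 366 in pNE. At day 4 it was 722 to 727 in aNE_T and 348 to 360.5 in pNE_T, but 242 to 249 in the midbrain medium libraries, 166 to 208 in aNE_H and 146 to 159.8 in pNE_H. In this sum aNE_H thus overlapped the stem cells, and pNE_H was below them. Of the 6 neural markers, 2 reached 1 TPM in both hPSC libraries, against 5 in aNE_H and 4 in pNE_H. Equal sums thus rest on different numbers of genes, and their part in the results was not tested. Summed TPM was at most 43.4 for 4 neural crest markers and at most 18.1 for 5 surface ectoderm markers.

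Of the 42 members, 36 had at least 1 TPM in at least 2 libraries and entered the tests, among 17033 tested genes. All 10 Frizzled receptors, all 9 antagonists and all 4 R-spondins did so, and 13 of the 19 WNT ligands. The 6 members that did not were WNT1, WNT2, WNT3A, WNT7A, WNT9B and WNT16, which had at most 0.753 TPM in any library. A mean of at least 20 TPM in some group was reached by 17 members: 8 Frizzled receptors, 4 genes of the SFRP family, 3 ligands, 2 DKK genes and no R-spondin. The SFRP family and the Frizzled receptors therefore had far higher levels than the ligands in the stem cells, at 861 and 869 TPM summed over the SFRP family, 217 and 223 TPM over the Frizzled receptors, and 7.03 and 7.34 TPM over the ligands. Of the 36 tested members, 9 had their highest group mean in aNE_T, 8 in aNE, 5 in pNE_M, 4 in aNE_M, 3 in pNE_H, 2 each in aNE_H, pNE_T and hPSC, and 1 in pNE. In such bulk samples, fewer cells of a type and less RNA per cell cannot be told apart.

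**Figure D1:**
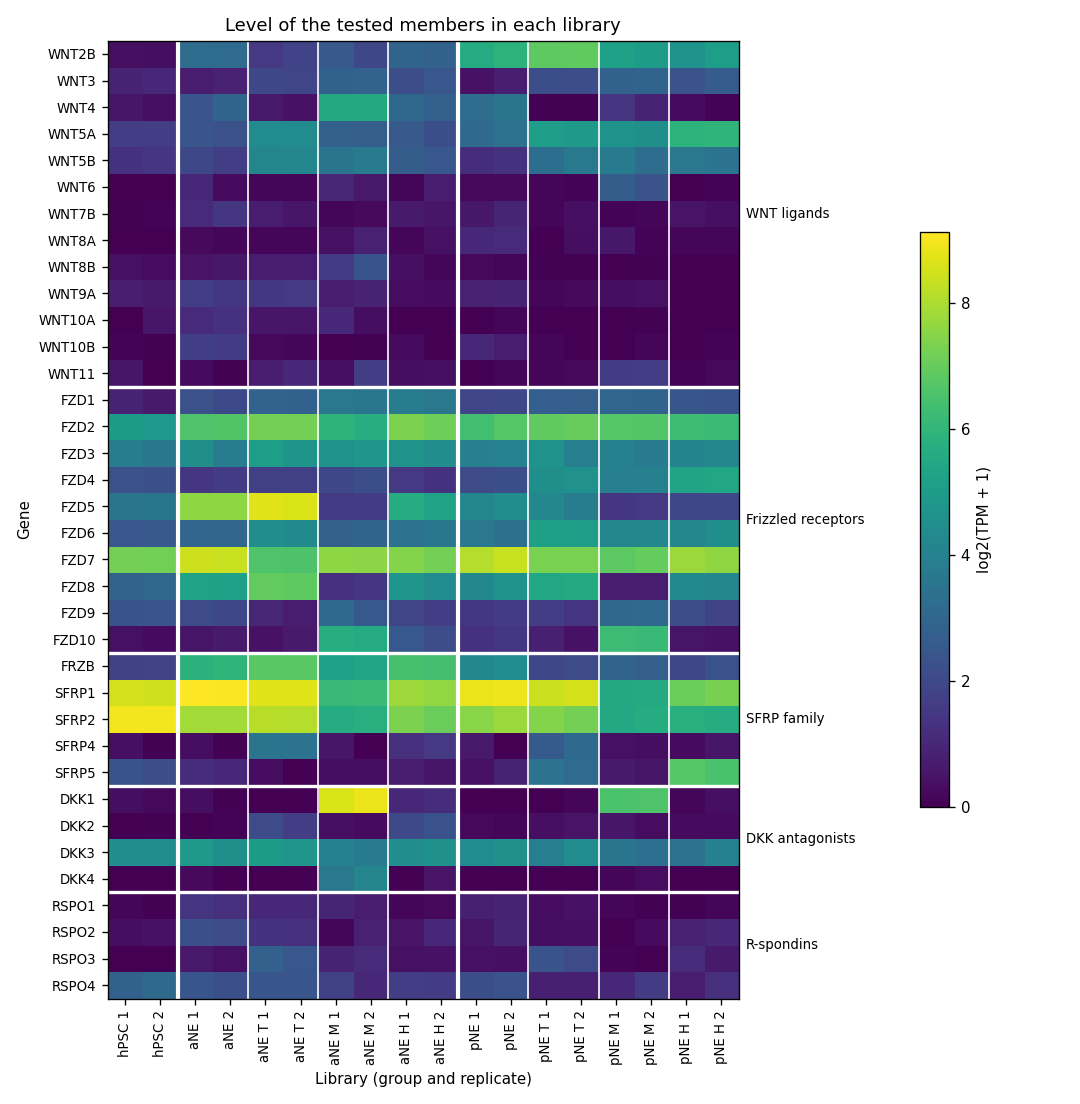
Colour shows the level of each of the 36 tested members, as log2(TPM + 1), in each of the 18 libraries, with genes in rows by class and libraries in columns by group and replicate. The SFRP1 and SFRP2 rows are bright in every group except those in midbrain medium and, for SFRP2, pNE_H, whereas DKK1 is bright in the 4 midbrain medium libraries alone.

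Among the ligands, WNT2B, WNT5A and WNT4 reached the highest levels, each in a different population. WNT2B, a ligand that acts through beta-catenin, had 0.297 and 0.261 TPM in the 2 hPSC libraries, 8.37 and 8.08 TPM in aNE, and 47.6 and 59.2 TPM in pNE. At day 4 it had 116 and 117 TPM in pNE_T, 36.1 and 31.7 TPM in pNE_M and 24.4 and 32.5 TPM in pNE_H. In cells of aNE origin it stayed at or below 6.76 TPM in every medium. No library of aNE origin overlapped one of pNE origin. On the log2(TPM + 1) scale, which is used for all differences here and understates the change of genes with low values and is given with its SE after ±, WNT2B was 2.55 ± 0.19 (adjusted p = 1.19e-06) higher in pNE than in aNE. In the forebrain medium it changed in opposite directions in the 2 origins, by -1.53 ± 0.19 (adjusted p = 4.92e-05) from aNE and by 1.12 ± 0.19 (adjusted p = 5.80e-04) from pNE. The rise was 0.96 and was not called without pNE replicate 1, because it fell under the minimum size of 1. The gene lies on chromosome 1 and overlaps ST7L on the opposite strand, whose TPM of 14.6 to 26.7 over the 18 libraries did not separate the origins.

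WNT5A, a ligand best known for signalling that does not use beta-catenin, rose in pNE from 2.14 and 2.17 TPM in hPSC to 7.85 and 9.88 TPM. It reached 59.4 and 61.2 TPM in pNE_H, 33.5 and 29.6 TPM in pNE_T and 24.7 and 22.4 TPM in pNE_M. In cells of aNE origin it had 20.1 TPM in both aNE_T libraries and 3.62 to 5.91 TPM in aNE, aNE_M and aNE_H. The difference between origins was therefore largest in the hindbrain medium, at 3.57 ± 0.13 (adjusted p = 7.89e-10). WNT5B, its close relative, had 17.1 and 17.5 TPM in aNE_T, 8.499 to 12.9 TPM in aNE_M and in the 3 groups of pNE origin at day 4, and at most 5.41 TPM in the other libraries. It overlaps FBXL14 on the opposite strand.

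WNT4, a ligand used in kidney and reproductive tract development, changed in opposite directions in the midbrain medium. It had 4.30 and 6.74 TPM in aNE and 45.2 and 45.3 TPM in aNE_M, but 8.69 and 10.4 TPM in pNE and 1.63 and 0.872 TPM in pNE_M. The rise in aNE-derived cells was 2.85 ± 0.22 (adjusted p = 3.55e-07) and the change in pNE-derived cells was -2.24 ± 0.22 (adjusted p = 3.41e-06). The difference between these responses was -5.10 ± 0.31 (adjusted p = 1.74e-07). In the forebrain medium it fell in both origins, to 0.559 and 0.356 TPM in aNE_T and to 0.0428 and 0.0471 TPM in pNE_T. In the hindbrain medium it stayed at 7.42 and 5.92 TPM in aNE_H and fell to 0.214 and 0.0650 TPM in pNE_H. The aNE_M libraries, which had the highest WNT4, also had the highest summed TPM of 6 mesendoderm markers, at 98.0 to 117, of which 3 reached 1 TPM in both libraries. This sum was 13.6 to 14.1 in pNE_M and at most 31.3 in the other groups. Most of it was MIXL1, at 78.0 and 94.9 TPM, with EOMES at 16.2 and 16.9 TPM, TBXT at 2.72 and 4.01 TPM and SOX17 listed at 0. The part of such cells in the WNT4 level was not tested.

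The other ligands were low. WNT3, a ligand of gastrulation and of the midbrain-hindbrain region, rose from at most 0.794 TPM in aNE and pNE to 2.79 to 6.59 TPM in all 6 day-4 groups. Its rise was called in all 6, and it differed between origins in none. WNT6 had 5.49 and 4.05 TPM in pNE_M and at most 1.05 TPM elsewhere. WNT8B, a ligand of the dorsal forebrain, peaked with 2.06 and 4.19 TPM in aNE_M, against a maximum of 0.668 TPM elsewhere. Its call in aNE_M against aNE, and that of WNT6 between the origins, were lost in a fit of the compared libraries only (adjusted p = 0.0538 for WNT8B against aNE and 0.0552 for WNT6 between origins). WNT7B, WNT8A, WNT9A, WNT10A, WNT10B and WNT11 had at most 2.22 TPM in any library. WNT10B had 2.22 and 2.05 TPM in aNE. It had 1.06 and 0.657 TPM in pNE, with a maximum of 0.214 TPM in the other libraries.

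WNT ligand genes of 4 pairs lie next to each other in the genome, and their levels differed within a pair for WNT3 and WNT10B. On chromosome 17, WNT3 lies 14496 bases from WNT9B, which had at most 0.617 TPM, whereas WNT3 reached 6.59 TPM. On chromosome 12, WNT10B lies 6586 bases from WNT1, which had at most 0.343 TPM. On chromosome 1, WNT9A, with up to 2.13 TPM, lies 59065 bases from WNT3A, with up to 0.753 TPM. On chromosome 2, the RefSeq spans of WNT6 and WNT10A overlap at their ends, with a distance of -118 bases. The part of this overlap in their low values was not tested.

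Summed over the 19 ligands, TPM was 30.2 and 30.7 in aNE and 70.0 and 86.4 in pNE. At day 4 the sum was highest in pNE_T, at 162 and 164 TPM, and lowest in aNE_H, at 30.6 and 27.5 TPM. WNT2B made up 68.3% of the sum in pNE, 71.4% in pNE_T and 40.5% in pNE_M. WNT5A led in pNE_H with 57.2%, and WNT4 in aNE_M with 56.0%. In aNE_T the sum was shared by WNT5A with 41.5% and WNT5B with 35.7%. In aNE_H the highest shares were 22.9% for WNT4 and 22.1% for WNT2B. All these shares are means of the 2 libraries.

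The Frizzled receptors changed both in kind and in total. FZD7, the main receptor of the stem cells, had 148 and 146 TPM in hPSC, 342 and 328 TPM in aNE and 276 and 324 TPM in pNE. It made up 66.9% of all Frizzled TPM in hPSC, 48.3% in aNE and 64.1% in pNE. At day 4 it fell to 95.8 and 93.8 TPM in aNE_T, where its share was 11.6%, and stayed between 112 and 213 TPM in the other 5 groups. FZD2 rose from 30.6 and 28.1 TPM in hPSC to 97.9 and 98.3 TPM in aNE and 81.3 and 104 TPM in pNE. It was between 50.5 and 158 TPM at day 4, with the lowest values in aNE_M, and did not differ between origins by the criteria used.

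FZD5 and FZD8, paired receptors of the early forebrain and eye, ran over wide ranges in cells of aNE origin. FZD5 had 10.5 and 10.8 TPM in hPSC, 189 and 189.5 TPM in aNE, and 408 and 391 TPM in aNE_T. In the midbrain medium it was at 1.95 and 2.05 TPM, and in the hindbrain medium at 49.7 and 37.9 TPM. In pNE it had 17.0 and 21.4 TPM, in pNE_T 17.95 and 13.7 TPM, in pNE_M 1.73 and 1.83 TPM and in pNE_H 2.84 and 2.87 TPM. FZD5 was thus higher in every aNE library than in any pNE library, and in every aNE_T and aNE_H library than in its pNE-derived counterpart. The difference of pNE from aNE at day 2 was -3.24 ± 0.14 (adjusted p = 9.55e-09), and that of pNE_T from aNE_T was -4.58 ± 0.14 (adjusted p = 1.19e-10). FZD5 made up 27.3% of Frizzled TPM in aNE, 48.8% in aNE_T and 0.575% in aNE_M. Summed TPM of the 6 forebrain markers moved with it, at 554 to 567 in aNE, 928 to 977 in aNE_T, 6.86 to 8.06 in aNE_M and 99.6 to 149.8 in aNE_H.

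FZD8 had 38.5 and 36.03 TPM in aNE and 18.05 and 25.0 TPM in pNE. In the forebrain medium it rose in both origins, to 121 and 114 TPM in aNE_T and to 43.8 and 46.9 TPM in pNE_T. The rise from pNE was 0.83 and was not called without pNE replicate 1. In the midbrain medium it fell to 1.40 and 1.70 TPM in aNE_M and to 0.720 and 0.671 TPM in pNE_M. In the hindbrain medium it had 26.8 and 19.9 TPM in aNE_H and 19.9 and 18.4 TPM in pNE_H. Unlike FZD5, its fall in the midbrain medium was of similar size in both origins, at -3.91 ± 0.16 (adjusted p = 7.00e-10) and -3.71 ± 0.16 (adjusted p = 1.27e-09), and the interaction was not called.

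FZD10, a receptor of the dorsal neural tube, moved the other way. It had 50.3 and 48.6 TPM in aNE_M and 76.3 and 70.1 TPM in pNE_M. It was at 4.75 and 3.44 TPM in aNE_H, 1.47 and 1.76 TPM in pNE and at most 0.737 TPM in the other 10 libraries. Its rise in the midbrain medium was 5.07 ± 0.17 (adjusted p = 1.94e-10) from aNE and 4.83 ± 0.17 (adjusted p = 3.55e-10) from pNE. It made up 14.2% and 20.4% of Frizzled TPM in aNE_M and pNE_M. FZD9 also had its highest levels there, at 7.66 and 4.78 TPM in aNE_M and 7.47 and 7.76 TPM in pNE_M, against 0.671 to 4.32 TPM in all other libraries. FZD1 had 11.1 to 13.5 TPM in aNE_M and aNE_H and at most 6.81 TPM elsewhere.

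FZD4, a receptor for WNT ligands and for the ligand norrin, was raised only after day 2 and only in cells of pNE origin among the groups measured. It had 3.75 and 3.64 TPM in hPSC, 1.74 and 1.97 TPM in aNE and 3.36 and 3.53 TPM in pNE. It reached 38.9 and 42.0 TPM in pNE_H, 22.6 and 23.6 TPM in pNE_T and 14.5 and 14.9 TPM in pNE_M, whereas the 6 day-4 libraries of aNE origin had 1.51 to 3.53 TPM. The interaction was called in all 3 media, with 2.22 ± 0.17 (adjusted p = 1.42e-06) for forebrain, 1.25 ± 0.17 (adjusted p = 2.37e-04) for midbrain and 3.30 ± 0.17 (adjusted p = 4.89e-08) for hindbrain medium. FZD4 overlaps PRSS23 on the opposite strand. PRSS23 ran from 3.20 to 153 TPM and was highest in aNE_T, where FZD4 was low, so the overlapping genes had different orders of levels. FZD6 peaked at 35.2 and 33.8 TPM in pNE_T, followed by 21.2 and 19.5 TPM in aNE_T and 17.7 to 22.2 TPM in pNE_M and pNE_H. FZD3, a receptor with roles in axon growth, had 13.5 and 11.003 TPM in hPSC, 21.5 and 13.4 TPM in aNE and 14.8 and 15.4 TPM in pNE. At day 4 it had 32.6 and 25.5 TPM in aNE_T, 24.1 and 27.3 TPM in aNE_M and 24.0 and 21.1 TPM in aNE_H. In cells of pNE origin it had 24.5 and 13.9 TPM in pNE_T, 15.2 and 12.7 TPM in pNE_M and 15.9 and 17.8 TPM in pNE_H. It was called in none of the comparisons.

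Total Frizzled TPM was 223 and 217 in hPSC, 705 and 681 in aNE and 428 and 509 in pNE. It was highest in aNE_T, at 837 and 802, and lowest at day 4 in aNE_M and pNE_M, at 341 to 359.9. The other day-4 groups lay between 380.2 and 464.

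**Figure D2:**
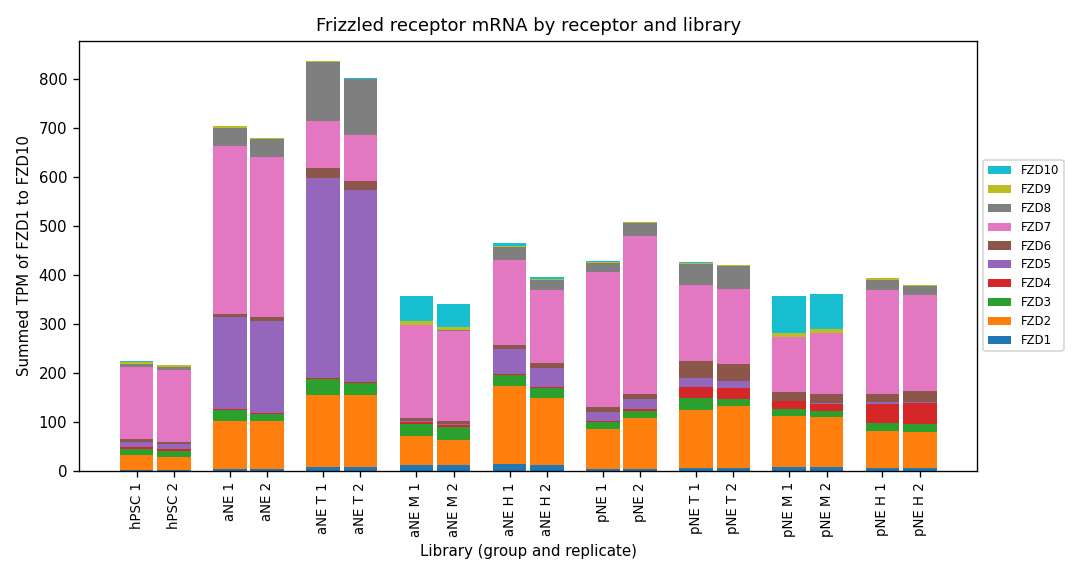
Bars show the summed TPM of the 10 Frizzled receptors in each library, divided by receptor, with libraries on the x axis by group and replicate. FZD5 fills 48.8% of the aNE_T bars, FZD10 appears in the midbrain medium libraries of both origins, and FZD4 in the day-4 libraries of pNE origin.

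The SFRP family held the most abundant members of all. SFRP1 had 361 and 352 TPM in hPSC, 557 and 539.7 TPM in aNE and 459 and 479.7 TPM in pNE. It had 410.3 and 405 TPM in aNE_T and 334 and 371 TPM in pNE_T. It fell to 69.7 and 73.5 TPM in aNE_M and to 44.4 and 46.4 TPM in pNE_M, with intermediate levels of 222 and 199 TPM in aNE_H and 135 and 150.1 TPM in pNE_H. The fall in the midbrain medium was -2.92 ± 0.07 (adjusted p = 1.72e-11) from aNE and -3.34 ± 0.07 (adjusted p = 5.21e-12) from pNE. In both origins the order of the media was the same, forebrain above hindbrain above midbrain, and no libraries of different media overlapped.

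SFRP2, a related antagonist, was highest in hPSC, at 501 and 503 TPM. It fell by day 2 to 233 and 229 TPM in aNE and 178 and 216 TPM in pNE. At day 4 it had 285 and 274 TPM in aNE_T, 159 and 131 TPM in aNE_H and 170.4 and 147 TPM in pNE_T. Its lowest levels were 49.6 and 51.4 TPM in aNE_M as well as 44.2 and 49.4 TPM in pNE_M, beside 53.3 and 49.0 TPM in pNE_H. SFRP2 in the hindbrain medium therefore differed between origins, by -1.48 ± 0.11 (adjusted p = 4.80e-07), and its change from day 2 was more negative in pNE-derived cells, with an interaction of -1.25 ± 0.15 (adjusted p = 9.58e-05). SFRP1 showed no call between origins in any medium.

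FRZB, also called SFRP3, marked the anterior origin at every stage. It had 2.49 and 2.68 TPM in hPSC, 57.7 and 62.4 TPM in aNE and 18.3 and 20.4 TPM in pNE. In cells of aNE origin it had 109.9 and 109.3 TPM in aNE_T, 87.1 and 85.9 TPM in aNE_H and 36.4 and 40.6 TPM in aNE_M. In cells of pNE origin it fell in every medium, to 2.81 and 3.27 TPM in pNE_T, 2.83 and 3.97 TPM in pNE_H and 6.57 and 5.72 TPM in pNE_M. All 8 libraries of aNE origin lay above all 8 of pNE origin. The log2 difference of pNE from aNE origin was -1.59 ± 0.12 (adjusted p = 1.90e-06) at day 2, -4.78 ± 0.12 (adjusted p = 3.06e-11) under forebrain and -2.47 ± 0.12 (adjusted p = 1.77e-08) under midbrain medium. The midbrain medium thus held the lowest FRZB of aNE origin and the highest day-4 FRZB of pNE origin.

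SFRP5 was high in 1 population. It had 108 and 90.4 TPM in pNE_H, 10.0 and 8.05 TPM in pNE_T, 4.14 and 3.46 TPM in hPSC and at most 1.21 TPM in the other 12 libraries. Its rise from pNE was 5.96 ± 0.19 (adjusted p = 2.67e-10) in the hindbrain medium, and the interaction there was 6.44 ± 0.27 (adjusted p = 1.15e-08). In pNE_H it made up 33.4% of the SFRP family's TPM, above SFRP2 with 17.2%. SFRP4 had 10.5 and 9.99 TPM in aNE_T, 5.06 and 7.79 TPM in pNE_T and at most 1.84 TPM in the other 14 libraries, so it was a transcript of the forebrain medium in both origins. SFRP4 overlaps EPDR1 on the opposite strand. EPDR1 was also highest in those groups, at 52.1 and 50.4 TPM in aNE_T and 50.7 and 46.4 TPM in pNE_T. It also had 38.0 and 29.7 TPM in aNE_H, 34.2 and 32.1 TPM in pNE_M and 26.7 and 21.1 TPM in aNE_M. In those 3 groups SFRP4 was at most 1.84 TPM. Without strand, reads of the 2 genes where they overlap cannot be told apart.

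Summed over the family, SFRP TPM was 869 and 861 in hPSC, 849 and 832 in aNE and 656 and 717 in pNE. In the midbrain medium it was 156 and 166 in aNE_M and 96.1 and 102 in pNE_M, the lowest sums of the 9 groups.

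DKK1, which blocks the LRP co-receptors and is needed for head formation, went from near 0 to one of the most abundant members in the midbrain medium. It had 387 and 459 TPM in aNE_M and 91.8 and 97.6 TPM in pNE_M. It was at 1.04 and 1.26 TPM in aNE_H and at most 0.302 TPM in the other 12 libraries, and was listed at 0 in both aNE_T and both pNE libraries. The rise from aNE was 8.52 ± 0.16 (adjusted p = 1.77e-12), and DKK1 was called higher in pNE_M than in pNE too, where no fold is given against a group at 0. Within the midbrain medium DKK1 was lower in cells of pNE origin by -2.14 ± 0.16 (adjusted p = 6.29e-07). The interaction was called at -1.94 ± 0.22 (adjusted p = 5.67e-05) but was -0.95 (adjusted p = 0.444) with a pseudocount of 0.1. It rests on day-2 levels at or near 0, so its size depends on the pseudocount. DKK4 was higher in aNE_M, at 11.2 and 17.0 TPM, than in all other libraries, which had at most 0.390 TPM. In pNE_M it had 0.1003 and 0.244 TPM, so unlike DKK1 it was not called there against day 2. Like DKK1 and DKK4, the mesendoderm marker sum given above for WNT4 was higher in aNE_M, at 98.0 to 117, than in pNE_M, at 13.6 to 14.1. In aNE the sum was 29.9 to 31.3, above that of pNE_M, whereas DKK1 was at most 0.257 TPM in aNE. The part of such cells in the DKK1 and DKK4 levels was not tested.

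DKK2 had 3.29 and 2.14 TPM in aNE_T and 3.002 and 3.98 TPM in aNE_H, and at most 0.480 TPM in the other 14 libraries. DKK3 was broadly present, with no call between origins at any stage. It had 21.4 and 21.1 TPM in hPSC and 28.8 and 22.6 TPM in aNE. At day 4 it had 30.7 and 25.9 TPM in aNE_T, 15.1 and 13.04 TPM in aNE_M and 20.96 and 22.9 TPM in aNE_H. In cells of pNE origin it had 14.3 and 20.1 TPM in pNE_T and 9.55 and 14.9 TPM in pNE_H. Its fall from pNE to pNE_M, from 20.1 and 22.9 TPM to 10.3 and 9.03 TPM, was called at -1.08 ± 0.20 (adjusted p = 8.22e-04) and was -0.99, under the minimum size, without either pNE replicate 2 or pNE_M replicate 2.

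The R-spondins stayed under 8 TPM. RSPO4 was highest in hPSC, at 6.17 and 7.98 TPM, and was lower in pNE_T, at 0.728 and 0.725 TPM, than in aNE_T, at 4.45 and 4.38 TPM. RSPO3 had 5.96 and 4.62 TPM in aNE_T and 4.11 and 3.38 TPM in pNE_T, and at most 1.24 TPM elsewhere. RSPO2 had 3.74 and 3.39 TPM in aNE and 0.439 and 0.931 TPM in pNE. The difference of RSPO2 was called at -1.45 ± 0.26 (adjusted p = 0.00199) and was not in a fit of those 4 libraries only (adjusted p = 0.0681). RSPO1 peaked in aNE at 1.64 and 1.38 TPM.

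**Figure D3:**
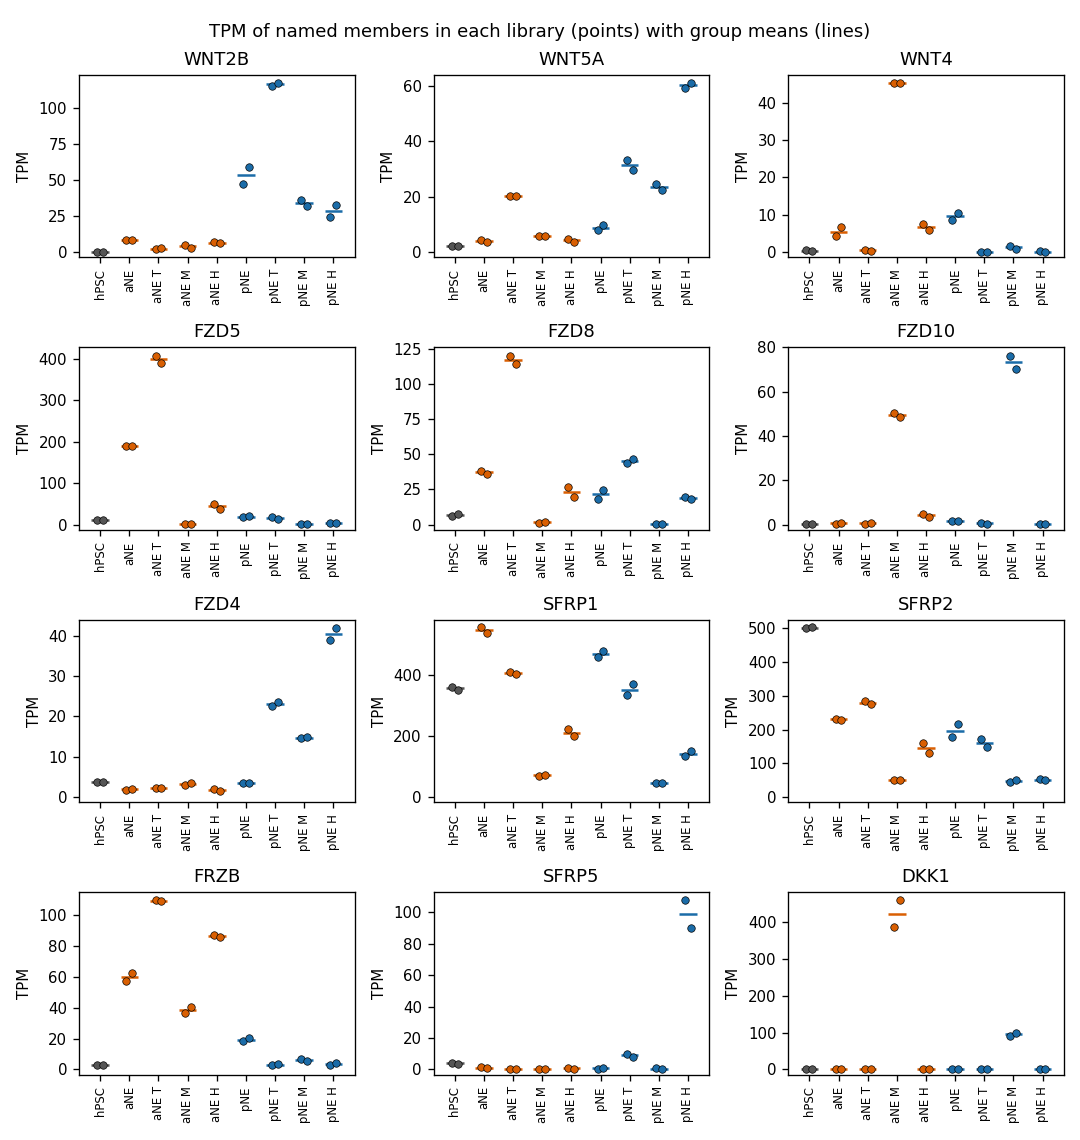
Points show the TPM of 12 members in each library on linear axes that differ between panels, lines show the mean of the 2 libraries, and colours mark hPSC (grey), aNE origin (orange) and pNE origin (blue). WNT2B and FZD4 are highest in pNE-derived cells, FZD5 and FRZB in aNE-derived cells, DKK1 and FZD10 in the midbrain medium of both origins, and SFRP5 in pNE_H at 108 and 90.4 TPM.

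Against the stem cells, the comparison at day 2 asked which WNT components are switched with entry into each neural ectoderm. In aNE, 14 of the 36 tested members changed, 12 higher and 2 lower, beside 13.5% of all tested genes changed (7.36% higher and 6.19% lower). In pNE, 12 of the 36 changed, 10 higher and 2 lower, beside 12.9% of all genes (7.14% higher and 5.74% lower). The comparisons share the hPSC libraries. In aNE, FZD1, FZD2, FZD5, FZD7, FZD8, FRZB, WNT2B, WNT4, WNT7B, WNT10B, RSPO1 and RSPO2 rose, and SFRP2 and SFRP5 fell. In pNE, FZD1, FZD2, FZD7, FZD8, FZD10, FRZB, WNT2B, WNT4, WNT5A and WNT8A rose, and SFRP2 and SFRP5 fell. FZD5 rose in aNE by 4.03 ± 0.14 (adjusted p = 2.86e-10). The rise of FRZB there was 4.09 ± 0.12 (adjusted p = 7.94e-11). The largest rise in pNE was that of WNT2B, at 5.40 ± 0.19 (adjusted p = 2.85e-10). FZD7 in pNE was called at 1.02 and was 0.94 under median-ratio scaling and 0.90 without pNE replicate 2, under the minimum size. FZD10 in pNE was 0.98 without hPSC replicate 2 and 0.97 without pNE replicate 2. With a pseudocount of 0.1, 19 members were called in pNE. The median log2 difference over the tested members was 0.50 in aNE and 0.32 in pNE, against 0.06 and 0.05 over all tested genes.

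Between the populations at day 2, at equal plating density, the question was how far WNT components differ before any regional medium. FZD5, FRZB, RSPO2 and WNT10A were lower and WNT2B was higher in pNE. These were 5 of the 36 members, 1 higher and 4 lower, beside 3.85% of all tested genes (2.37% higher and 1.48% lower). WNT10A had 1.17 and 1.45 TPM in aNE, and in pNE was listed at 0 in replicate 1 and was at 0.0869 TPM in replicate 2. Its call was lost without aNE replicate 2 (adjusted p = 0.0642) and without pNE replicate 1 (adjusted p = 0.0535). The median log2 difference was -0.21 over the tested members and -0.01 over all tested genes.

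From day 2 to day 4, each day-4 group was set against its own day-2 population to ask how the components respond to each medium. Time in culture and plating density also differed between these stages, so their parts and that of the medium cannot be told apart. Under forebrain medium 14 of 36 members changed in aNE-derived cells, 9 higher and 5 lower, beside 9.03% of all genes (4.61% higher and 4.42% lower). In pNE-derived cells 13 changed, 10 higher and 3 lower, beside 10.2% (4.68% higher and 5.56% lower). FZD6, FZD8, RSPO3, SFRP4, WNT3, WNT5A and WNT5B rose in both origins, WNT4 fell in both, and WNT2B changed in opposite directions. Of the members that rose from aNE, 77.8% also rose from pNE, beside 33.9% for all genes that rose from aNE. For falls these shares were 20% and 50.3%.

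Under midbrain medium 15 of 36 members changed in aNE-derived cells, 8 higher and 7 lower, beside 12.0% of all genes (4.34% higher and 7.63% lower). In pNE-derived cells 18 changed, 10 higher and 8 lower, beside 12.7% (4.87% higher and 7.85% lower). DKK1, FZD1, FZD10, WNT3 and WNT5B rose in both origins. FZD5, FZD8, SFRP1 and SFRP2 fell in both, and WNT4 changed in opposite directions. Of the members that rose from aNE, 62.5% also rose from pNE, beside 47.4% for all genes that rose from aNE. For falls these shares were 57.1% and 54.8%, so the sharing of falls was near that of all genes. FRZB and FZD7 fell in pNE-derived cells, by -1.51 ± 0.12 (adjusted p = 8.00e-07) and -1.33 ± 0.09 (adjusted p = 8.62e-08).

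**Figure D4:**
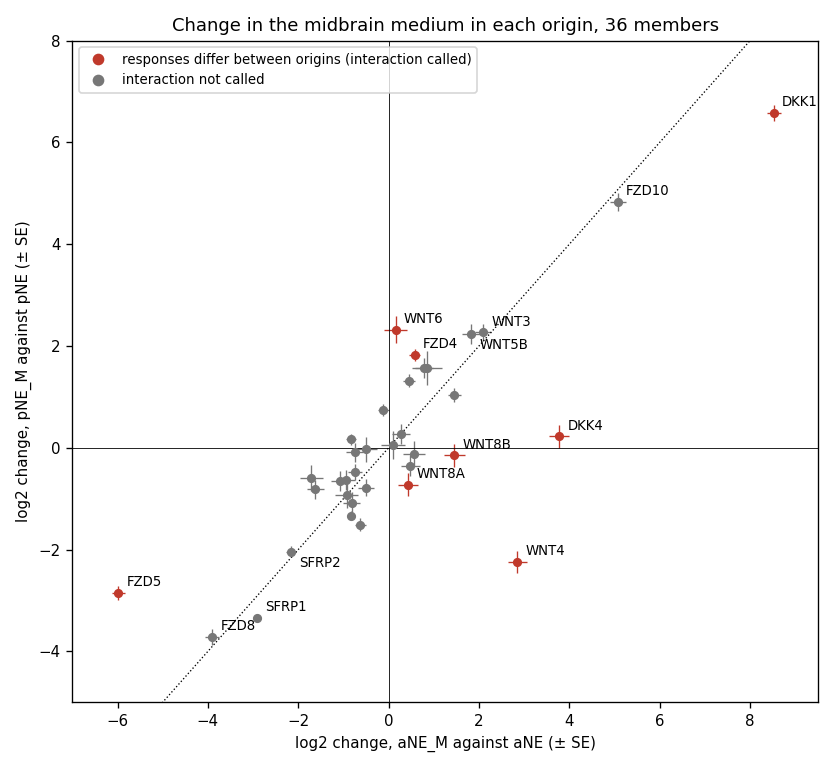
Each point is 1 of the 36 tested members, with its log2 change in the midbrain medium from aNE on the x axis and from pNE on the y axis, bars for SE, and a dotted line where both changes are equal. FZD10, SFRP1, SFRP2 and FZD8 lie near the line, whereas WNT4, at 2.85 and -2.24, lies on opposite sides of 0.

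Under hindbrain medium 13 of 36 members changed in aNE-derived cells, 5 higher and 8 lower, beside 10.1% of all genes (3.24% higher and 6.83% lower). In pNE-derived cells 11 changed, 5 higher and 6 lower, beside 12.3% (4.47% higher and 7.80% lower), and 17 with a pseudocount of 0.1. WNT3 rose and FZD5 and SFRP1 fell in both origins. Of the members that rose from aNE, 20% also rose from pNE, beside 37.5% for all genes that rose from aNE. For falls these shares were 25% and 55.2%. DKK2, FZD1, FZD10 and SFRP4 also rose in aNE-derived cells, and FZD4, SFRP5, WNT5A and WNT5B in pNE-derived cells. The interaction was called for all of these except SFRP4. The SFRP4 rise lost its call without aNE replicate 2 (adjusted p = 0.0517) and without aNE_H replicate 2 (adjusted p = 0.0507). The FZD1 interaction was -0.97 without aNE replicate 2 and -0.95 without aNE_H replicate 1, under the minimum size.

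Upstream sequences of the members that moved the same way in both origins in the midbrain medium are shown because these members moved alike in both origins. RefSeq sequence of the 250 bases before the annotated start (GRCh38.p14, a patch release of the hg38 assembly named for the files) was found for 29 of the 42 members. It was found for 4 of the 5 members that rose in both and for 3 of the 4 that fell in both. The windows of the risers are DKK1 at chr10:52314031-52314280 on the plus strand, FZD1 at chr7:91264183-91264432 on the plus strand, WNT3 at chr17:46818693-46818942 on the minus strand and WNT5B at chr12:1616806-1617055 on the plus strand. They are printed 5′ to 3′ on the gene's strand, with capitals at CTTTG or its reverse complement CAAAG, the short core of the motif that TCF and LEF factors bind.
DKK1: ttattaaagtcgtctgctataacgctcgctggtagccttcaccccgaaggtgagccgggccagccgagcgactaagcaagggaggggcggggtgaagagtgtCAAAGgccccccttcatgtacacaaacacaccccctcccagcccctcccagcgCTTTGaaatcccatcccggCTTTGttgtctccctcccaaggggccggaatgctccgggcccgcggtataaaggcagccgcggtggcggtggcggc
FZD1: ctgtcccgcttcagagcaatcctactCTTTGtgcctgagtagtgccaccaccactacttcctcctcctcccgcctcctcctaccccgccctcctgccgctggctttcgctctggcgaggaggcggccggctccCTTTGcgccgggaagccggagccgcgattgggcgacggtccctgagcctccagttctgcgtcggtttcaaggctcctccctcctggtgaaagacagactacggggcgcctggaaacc
WNT3: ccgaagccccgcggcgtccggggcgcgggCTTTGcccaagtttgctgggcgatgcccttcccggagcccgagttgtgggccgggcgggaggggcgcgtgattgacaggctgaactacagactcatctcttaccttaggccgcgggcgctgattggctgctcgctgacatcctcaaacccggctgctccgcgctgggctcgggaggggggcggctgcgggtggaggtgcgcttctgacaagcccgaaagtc
WNT5B: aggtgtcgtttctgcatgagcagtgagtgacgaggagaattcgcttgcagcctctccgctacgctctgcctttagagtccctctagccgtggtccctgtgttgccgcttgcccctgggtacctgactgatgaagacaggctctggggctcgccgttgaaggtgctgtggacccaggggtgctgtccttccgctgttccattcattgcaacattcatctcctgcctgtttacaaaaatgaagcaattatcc
The windows of the members that fell are FZD5 at chr2:207769907-207770156 on the minus strand, FZD8 at chr10:35642297-35642546 on the minus strand and SFRP2 at chr4:153789084-153789333 on the minus strand.
FZD5: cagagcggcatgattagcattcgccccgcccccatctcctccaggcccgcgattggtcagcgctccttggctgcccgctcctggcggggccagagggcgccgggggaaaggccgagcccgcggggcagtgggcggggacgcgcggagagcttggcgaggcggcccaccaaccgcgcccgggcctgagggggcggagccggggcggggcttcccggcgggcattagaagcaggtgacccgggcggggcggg
FZD8: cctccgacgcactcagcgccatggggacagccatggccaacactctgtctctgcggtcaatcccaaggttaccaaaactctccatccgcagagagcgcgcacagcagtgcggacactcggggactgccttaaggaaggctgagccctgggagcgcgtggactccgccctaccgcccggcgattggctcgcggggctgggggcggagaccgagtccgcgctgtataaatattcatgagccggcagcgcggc
SFRP2: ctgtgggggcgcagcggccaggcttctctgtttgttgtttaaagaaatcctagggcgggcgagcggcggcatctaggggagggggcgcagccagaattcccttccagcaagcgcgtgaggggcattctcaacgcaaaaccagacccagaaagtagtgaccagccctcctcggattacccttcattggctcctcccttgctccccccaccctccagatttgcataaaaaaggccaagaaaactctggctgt
The core was present 3 times in the DKK1 window, 2 times in that of FZD1 and 1 time in that of WNT3, and was not found in that of WNT5B or in those of FZD5, FZD8 and SFRP2. It occurs in 42.1% of the 35116 RefSeq windows of this length and in 5 of the 29 member windows. The longer form CTTTGAT, on either strand, was in none of the 29 and in 2.26% of all windows. The letters TATAAA, on either strand, were in the windows of DKK1 and FZD8 and in 10.7% of all windows. GC content was 62.8% for DKK1, 65.2% for FZD1, 68.8% for WNT3 and 54.8% for WNT5B. It was 76.8% for FZD5, 65.2% for FZD8 and 57.6% for SFRP2, against a median of 58.0% over all windows. The motifs were chosen after the values were seen, and a match describes the letters and not a bound site.

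Media were also compared with each other at day 4 within an origin, where plating density was equal. In aNE-derived cells, midbrain against forebrain medium gave 18 of 36 members, 6 higher and 12 lower, beside 10.1% of all genes (3.50% higher and 6.55% lower). FZD5 differed by -7.06 ± 0.14 (adjusted p = 1.64e-12), FZD8 by -5.54 ± 0.16 (adjusted p = 2.84e-11) and FZD10 by 5.09 ± 0.17 (adjusted p = 1.79e-10). Of the 9 antagonists, 2 were higher (DKK1 and DKK4) and 5 lower (SFRP1, SFRP2, SFRP4, FRZB and DKK2). In pNE-derived cells the same comparison gave 14 members, 6 higher and 8 lower, beside 8.60% (3.31% higher and 5.29% lower). DKK1, FZD9, FZD10 and WNT4 were higher and FZD5, FZD8, RSPO3, SFRP1, SFRP2 and SFRP4 lower in midbrain medium in both origins. The call of WNT4 in pNE-derived cells was lost without pNE_M replicate 1 (0.84) and in a fit of the compared libraries only (adjusted p = 0.0534).

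Hindbrain against forebrain medium gave 11 of 36 members in aNE-derived cells, 4 higher and 7 lower, beside 6.60% of all genes (1.78% higher and 4.83% lower). It gave 8 members in pNE-derived cells, 1 higher and 7 lower, beside 5.03% (1.65% higher and 3.38% lower). FZD5, FZD8, RSPO3 and SFRP4 were lower in hindbrain medium in both origins. The call of SFRP4 in aNE-derived cells was lost with a pseudocount of 0.1 (adjusted p = 0.0521), and that of RSPO3 in pNE-derived cells in a fit of the compared libraries only (adjusted p = 0.0952). WNT2B was higher in aNE_H than in aNE_T, by 1.22 ± 0.19 (adjusted p = 4.05e-04), and lower in pNE_H than in pNE_T, by -2.01 ± 0.19 (adjusted p = 9.45e-06). SFRP5 was the single member higher in pNE_H than in pNE_T, by 3.32 ± 0.19 (adjusted p = 1.57e-07).

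Hindbrain against midbrain medium gave 15 of 36 members in aNE-derived cells, 8 higher and 7 lower, beside 4.92% of all genes (2.27% higher and 2.65% lower). It gave 10 in pNE-derived cells, 5 higher and 5 lower, beside 5.99%. FZD8 and SFRP1 were higher and DKK1, FZD9 and FZD10 lower in hindbrain medium in both origins. Both FZD9 calls were lost in a fit of the compared libraries only (adjusted p = 0.198 for aNE origin and 0.0553 for pNE origin). FZD5 was higher in aNE_H than in aNE_M by 3.89 ± 0.14 (adjusted p = 1.55e-09).

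The comparison of origins in the same medium at day 4 asked whether the day-2 state of WNT components remains visible, with plating density differing as well. WNT2B and FZD4 were higher, and FRZB lower, in pNE-derived cells in all 3 media. Forebrain medium separated 9 of 36 members by origin, 3 higher and 6 lower, beside 7.77% of all genes (3.79% higher and 3.97% lower). Midbrain medium separated 10, 5 higher and 5 lower, beside 5.74% (3.19% higher and 2.55% lower). Hindbrain medium separated 11, 4 higher and 7 lower, beside 6.83% (3.92% higher and 2.91% lower). Over the 3 media 19 of 36 members differed in at least 1 medium, beside 13.8% of all tested genes, and 17 in none. No member was called higher in one medium and lower in another. Only 85 of the 17033 tested genes were, so this does not set the members apart. Among the members with no call between origins in any medium were FZD2, FZD3, FZD7, SFRP1, DKK3 and WNT3. Of the 5 members that differed at day 2, WNT2B and FRZB kept the same call in all 3 media and FZD5 in the forebrain and hindbrain media, whereas RSPO2 and WNT10A had no call at day 4.

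**Figure D5:**
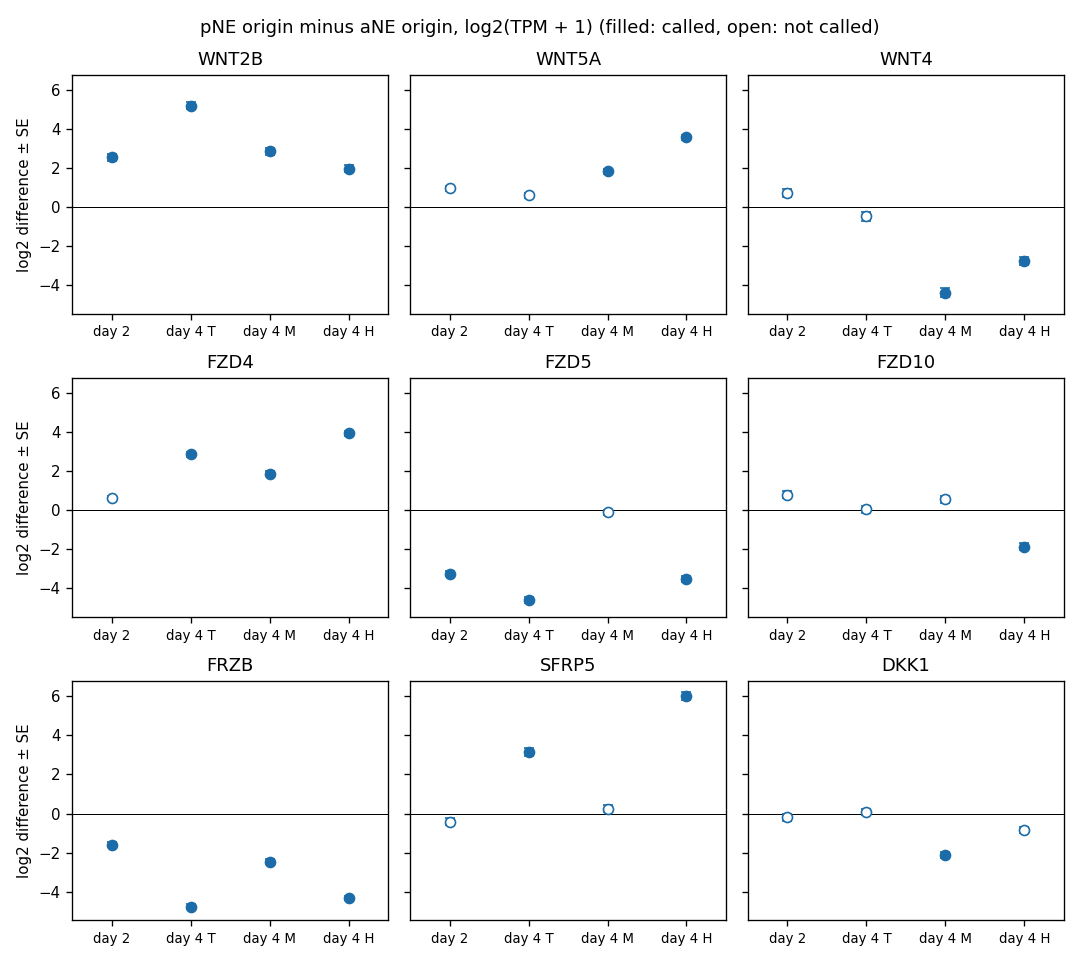
Points show the log2 difference of pNE origin minus aNE origin for 9 members at day 2 and in the forebrain (T), midbrain (M) and hindbrain (H) media at day 4, with bars for SE and filled points where the difference was called. WNT2B stays above 0 and FRZB below 0 at all 4 points, while FZD5 returns near 0 in the midbrain medium, where both origins had 1.73 to 2.05 TPM.

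Whether the responses to a medium differed between origins was tested as an interaction, the change of pNE-derived cells minus that of aNE-derived cells. It was called for 9 of 36 members in the forebrain medium, 4 higher and 5 lower, beside 7.14% of all genes (3.17% higher and 3.97% lower). For midbrain medium it was called for 8, 3 higher and 5 lower, beside 7.02% (3.33% higher and 3.69% lower). For hindbrain medium it was called for 13, 6 higher and 7 lower, beside 7.83% (3.91% higher and 3.92% lower). FZD4 and WNT4 were called in all 3 media, FZD4 higher and WNT4 lower. The WNT4 call in the forebrain medium was lost in a fit of the 8 compared libraries only (adjusted p = 0.0668) and without aNE replicate 1, aNE_T replicate 1, pNE replicate 2 or either pNE_T replicate (adjusted p = 0.0543 to 0.0936). WNT5A in the hindbrain medium had an interaction of 2.60 ± 0.18 (adjusted p = 7.75e-07).

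The rest of the pathway was read from a list of 42 other genes, of which 41 were tested. PORCN, TNKS and TNKS2, whose enzymes the inhibitors act on, were called in none of the comparisons. PORCN had 7.96 and 7.45 TPM in aNE and 6.83 and 7.26 TPM in pNE. TNKS had 34.0 and 32.5 TPM in aNE and 33.5 and 32.6 TPM in pNE. TNKS2 had 51.1 and 47.5 TPM in aNE and 47.5 and 47.0 TPM in pNE. WLS, the carrier that brings WNT ligands to the cell surface, had 1.83 and 2.04 TPM in hPSC, 100.0 and 88.5 TPM in aNE and 71.5 and 62.1 TPM in pNE. In the forebrain medium it fell to 5.76 and 7.03 TPM in aNE_T but was at 162 and 139 TPM in pNE_T. The log2 difference of pNE_T from aNE_T was 4.36, and the interaction was 4.85.

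In the midbrain medium 17 of the 41 genes changed from aNE (13 higher, 4 lower) and 20 from pNE (16 higher, 4 lower), beside the 12.0% and 12.7% of all genes given above. Of 6 transcriptional targets, 5 rose in both origins. AXIN2, a feedback inhibitor, had 315 and 312 TPM in aNE_M and 272 and 268 TPM in pNE_M, against 6.27 and 5.55 TPM in aNE and 9.45 and 10.6 TPM in pNE. LEF1 had 125 and 152 TPM in aNE_M and 159 and 164 TPM in pNE_M. AXIN2, LEF1 and LGR4 are named outside the rule for named genes, after their values were seen. The midbrain medium groups are those in which DKK1 and FZD10 were highest and SFRP1 lowest. LGR4, an R-spondin receptor, fell from 103 and 102 TPM in aNE to 5.36 and 7.499 TPM in aNE_M, and from 46.7 and 50.3 TPM in pNE to 6.51 and 7.18 TPM in pNE_M. Like DKK1, the membrane inhibitor APCDD1 was higher in cells of aNE origin, at 337 and 373 TPM in aNE_M and 41.5 and 38.1 TPM in pNE_M. WIF1, a secreted inhibitor, had 12.1 and 15.0 TPM in aNE_M and 1.59 and 2.11 TPM in pNE_M.

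Between origins, 4 of the 41 other genes differed at day 2, 2 in each direction, beside 3.85% of all tested genes. With forebrain medium 8 differed (5 up, 3 down in pNE origin), beside 7.77% of all genes. With midbrain medium 9 differed (5 up, 4 down), beside 5.74%, and with hindbrain medium 9 (6 up, 3 down), beside 6.83%. None of the 6 targets differed at day 2. In the hindbrain medium AXIN2 had 35.1 and 32.8 TPM in aNE_H and 73.3 and 66.2 TPM in pNE_H, whereas SP5 had 68.6 and 33.3 TPM in aNE_H and 0.171 and 0.0905 TPM in pNE_H, so targets differed in opposite directions. CER1, a secreted inhibitor of WNT, BMP and Nodal ligands, had 8.69 and 10.6 TPM in aNE_T and 1.59 and 0.717 TPM in pNE_T. The order was the opposite in hindbrain medium, with 2.64 and 3.38 TPM in aNE_H and 11.8 and 15.2 TPM in pNE_H. TNFRSF19, a target and membrane receptor, had 2.62 and 2.22 TPM in aNE_H and 35.9 and 35.4 TPM in pNE_H. SOST, a further LRP antagonist, had 6.05 and 7.06 TPM in pNE_M, and in aNE_M 0.0335 TPM in replicate 1 and a listed 0 in replicate 2. RNF43, which removes Frizzled receptors from the surface, had 13.6 and 15.3 TPM in pNE_M and 2.94 and 2.61 TPM in aNE_M.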

How the data were processed

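Poly-A RNA of 18 libraries was measured. The authors deposited 1 table of TPM per gene. The submitters' processing notes name bcl2fastq, FastQC, Trim Galore, kallisto, deepTools and the build hg38. Versions, annotation and strandedness are not given in the sources used here, and depth per sample is unknown from TPM.

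From the deposited TPM, log2(TPM + 1) was fitted for the 17033 of 37550 rows that reached 1 TPM in 2 or more libraries, in limma 3.58.1 (R 4.3.3) with 1 mean per group, 9 residual degrees of freedom and an intensity trend. Tests were two-sided with Benjamini-Hochberg adjustment over all tested genes. Calls required a log2 difference of 1 or more in size, with adjusted p below 0.05. There were 18 group comparisons and 3 interactions. In the main fit, p-values rest on the spread between the 2 samples of a group, pooled over the 9 groups and moderated over the tested genes. They do not rest on the compared groups alone. The 2 samples are described as biological replicates in the series' design text.

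Members and lists were chosen with earlier results of these data known. Members with a mean of at least 20 TPM in a group, or a called log2 difference of at least 2, were to be described by library. For some of these, groups with low or similar values are given by range, as are the other members. Other pathway genes were named where origins differed by at least 2 or where their enzymes were inhibited. Alternatives were a pseudocount of 0.1, no filter, median-ratio scaling, a fit of the compared libraries only, a replicate block and leaving out each library. The check of the hindbrain labels against markers is not reported here. Overlapping genes came from GENCODE 29 (GRCh38), promoters and neighbours from RefSeq.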

Additional observations from a re-analysis of the deposited data

Results flagged for a closer look

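The response to a medium differed between origins, by limma's interaction term (pNE origin minus aNE origin), for 30 pairs of a member and a medium. Values are log2(TPM + 1) differences with Benjamini-Hochberg adjusted p, from 2 libraries in each of 4 groups. Origin and plating density cannot be told apart in them.

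In the forebrain medium the change was more negative in pNE-derived cells for FRZB at -3.19, RSPO4 at -1.59, DKK2 at -1.55, FZD5 at -1.34 and WNT4 at -1.19. It was more positive for FZD9 at 1.16, FZD4 at 2.22, WNT2B at 2.65 and SFRP5 at 3.58. The adjusted p-values ran from 8.53e-08 to 0.0208.

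In the midbrain medium the change was more negative in pNE-derived cells for WNT4 at -5.10, DKK4 at -3.55, DKK1 at -1.94, WNT8B at -1.60 and WNT8A at -1.16. It was more positive for FZD4 at 1.25, WNT6 at 2.16 and FZD5 at 3.13. FZD5 fell in both origins, from unequal day-2 levels to 1.95 and 2.05 TPM in aNE_M and 1.73 and 1.83 TPM in pNE_M. The adjusted p-values ran from 1.74e-07 to 0.028.

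In the hindbrain medium the change was more negative in pNE-derived cells for WNT4 at -3.46, FRZB at -2.74, FZD10 at -2.65, DKK2 at -2.01, SFRP2 at -1.25, FZD1 at -1.08 and WNT8A at -1.04. It was more positive for WNT10A at 1.14, WNT5B at 1.51, RSPO2 at 1.62, WNT5A at 2.60, FZD4 at 3.30 and SFRP5 at 6.44. Of these, WNT10A and RSPO2 fell from aNE to aNE_H and had no call in pNE_H against pNE. The adjusted p-values ran from 1.15e-08 to 0.0443.

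WNT8A and WNT10A had at most 1.45 TPM in any library, and their calls were lost under several alternatives. The forebrain call of FZD9 was lost on leaving out aNE replicate 1, aNE_T replicate 2, pNE replicate 1 or pNE_T replicate 1 (adjusted p = 0.0522 to 0.0719), that of RSPO4 without aNE replicate 2 (0.0511), and that of WNT4 in 6 settings (0.0543 to 0.0936). The hindbrain call of RSPO2 was lost with a pseudocount of 0.1 (adjusted p = 0.0840), and that of FZD1 fell under the minimum size in 2 settings. DKK1 and DKK4 were at or near 0 at day 2, so their values depend on the pseudocount.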

How the results depend on the processing

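Of 251 calls over 35 members and 21 comparisons, 219 held under every alternative run, 32 were lost under at least 1, and 0 reversed. A fit of the compared libraries only lost 15 calls, a pseudocount of 0.1 lost 7, median-ratio scaling lost 2 and testing without the filter on low values lost 0. Leaving out 1 library at a time gave 56 lost calls over all libraries. With a pseudocount of 0.1 the members called rose from 12 to 19 in pNE against hPSC (15 higher and 4 lower), and from 11 to 17 in pNE_H against pNE (6 higher and 11 lower). The other counts of members stayed within 1.5 times. Replicate numbers did not pair the samples: over 36 pairs of groups, deviations of same-numbered samples correlated at -0.09 to 0.08. A fit with the replicate number as a block lost 2 calls, the hindbrain interactions of WNT10A (1.14, adjusted p = 0.0578) and WNT8A (-1.04, adjusted p = 0.0530). The cause of the lost calls was not tested. Depth is unknown, so no counting error can be given for low TPM values.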
